A study of Mus musculus with 4 samples.

Results

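Cholesterol synthesis was examined through 7 genes: the enzyme genes Hmgcs1, Idi1, Fdps, Sqle, Cyp51 and Msmo1, and Insig1, a gene of the feedback control. They were chosen by symbol, with earlier results of these data known, and were looked up in the 2 deposited expression tables. All 7 were found in at least 1 of the tables, out of 19175 genes in all; 6 were listed for stress and 7 for AAV. The tissue was prelimbic cortex, part of the medial prefrontal cortex, from 8-week-old C57BL/6 mice, and each of 4 groups gave 1 library. The control and susceptible groups belong to a chronic social defeat experiment, in which mice face repeated attacks and susceptible animals later avoid contact; the labels give both groups the same stress tag, so the treatment of the controls is not clear. The other groups received an adeno-associated virus (AAV) for green fluorescent protein (AAV-GFP) or for CDYL, a chromatin corepressor (AAV-CDYL); the labels name no promoter, virus serotype, or time after injection, nor whether a library was a pool of animals. Cdyl itself, the targeted gene, was at 2.68 FPKM in AAV-GFP and 1052 in AAV-CDYL, and at 1.98 in control and 2.54 in susceptible.

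Cells make cholesterol from acetyl-CoA in a mevalonate branch, which ends in farnesyl diphosphate, and a sterol branch, which starts with squalene and closes and trims the sterol rings. When sterol in the endoplasmic reticulum runs low, the escort protein Scap carries the SREBP transcription factors to the Golgi, where they are cut and freed to switch on the enzyme genes, while Insig proteins hold Scap back when sterol is plentiful. The brain makes nearly all of its own cholesterol, since lipoproteins of the blood do not cross the blood-brain barrier, and oligodendrocytes building myelin and astrocytes are known as strong producers.

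All 13 values listed for these genes, 6 for stress and 7 for AAV, were lower in the susceptible or AAV-CDYL library than in the library it was set against. Of all listed genes at FPKM 5 or more in either library, 56.8% lay below control for stress and 55.9% below AAV-GFP. Msmo1, Hmgcs1, Idi1 and Cyp51 were lower by at least 1.5-fold in both comparisons, beside 4.32% of the 3242 genes at FPKM 1 or more in both. Values are FPKM (fragment numbers scaled to transcript length and sequencing depth) as deposited, and a gene counted as lower or higher where a 1.5-fold or larger difference of log2(FPKM + 1) separated the libraries of a pair, provided that 1 of them held FPKM 1 or more (the floor). With 1 library per group no difference has a replicate check and no test was run. No gene with 2 values above 0 was listed at a ratio under 1.25, so an absent gene was either closer than that or not measured.

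Hmgcs1 encodes the cytosolic HMG-CoA synthase, an early step of the mevalonate branch (ENSMUSG00000093930, chromosome 13, 119690462 to 119708086, mm10). It was the most abundant member per length in every library. Its level was 131 FPKM in control, 79.3 in susceptible, 133 in AAV-GFP and 66.7 in AAV-CDYL. The control and AAV-GFP values lay close together and both others lay below them, 1.65-fold lower in susceptible and 1.99-fold lower in AAV-CDYL; the tables were normalized separately, so levels across them are set side by side only.

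Promoter windows of 300 bases were given for 5 of the 7 genes in RefSeq (build GRCm38.p6), with no entry for Sqle and Fdps. They were searched on both strands for TCACNCCAC, the core of the sterol regulatory element that SREBPs bind, and for CCAAT (NF-Y), GGGCGG (Sp1) and CACGTG (E-box), which is its own reverse complement. The 3 sequences below are shown because they hold a match ahead of both the RefSeq start and the start in the deposited tables; in the Msmo1 and Idi1 windows every match lay past the start in the deposited tables. Each runs 5′ to 3′ on the gene's strand and stops before both starts, with matches in capitals. They are chr13:119690101-119690350 (Hmgcs1, plus strand), chr5:4104747-4104947 (Cyp51, minus strand) and chr5:28071162-28071362 (Insig1, plus strand).
Hmgcs1: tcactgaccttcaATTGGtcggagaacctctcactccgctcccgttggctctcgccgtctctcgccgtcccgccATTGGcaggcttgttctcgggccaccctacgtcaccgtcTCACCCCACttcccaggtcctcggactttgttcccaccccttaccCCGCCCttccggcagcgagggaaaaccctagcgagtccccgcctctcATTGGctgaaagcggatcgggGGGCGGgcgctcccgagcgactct
Cyp51: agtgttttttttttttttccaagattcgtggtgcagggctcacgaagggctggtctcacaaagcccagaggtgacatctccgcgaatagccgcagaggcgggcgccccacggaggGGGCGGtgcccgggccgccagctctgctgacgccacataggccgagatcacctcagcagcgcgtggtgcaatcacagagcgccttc
Insig1: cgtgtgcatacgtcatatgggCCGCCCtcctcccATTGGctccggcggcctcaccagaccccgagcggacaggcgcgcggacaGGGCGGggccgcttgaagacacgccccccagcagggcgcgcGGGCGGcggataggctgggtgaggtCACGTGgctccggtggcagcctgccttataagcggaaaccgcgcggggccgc
Among the 5 windows, TCACNCCAC matched only in that of Hmgcs1, as TCACCCCAC at -137 from the RefSeq start site. Over 32851 windows, 1.24% held a match. Only these exact letters were searched for, so a window without a match may still hold a variant of the element. Matches to CCAAT and to GGGCGG stood in all 5 windows, beside 37.4% and 35.7% of all windows, and CACGTG in the Insig1 window alone, beside 7.15%. These are matches of letters, and no binding was measured.

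Idi1, Fdps and the other mevalonate genes carry the chain on to farnesyl diphosphate. Idi1, the isomerase that makes the reactive isoprenoid unit (ENSMUSG00000058258, chromosome 13, 8885501 to 8892451), stood at 24.8 FPKM in control, 11.4 in susceptible, 20.5 in AAV-GFP and 13.1 in AAV-CDYL. It was 2.17-fold lower in susceptible and 1.57-fold lower in AAV-CDYL. With both AAV libraries scaled to a common upper quartile, the Idi1 difference of log2(FPKM + 1) was -0.53, short of 1.5-fold. Fdps, farnesyl diphosphate synthase (ENSMUSG00000059743, chromosome 3, 89093588 to 89101959), stood at 84.9 in control, 54.6 in susceptible, 65.3 in AAV-GFP and 46.8 in AAV-CDYL. It was 1.56-fold lower in susceptible, a call that the same scaling ended (-0.56), and its 1.39-fold difference with CDYL was not counted. The Fdps locus also holds Rusc1 and Gm43738, and fragments of overlapping genes cannot be assigned with certainty because the library kit does not mark strand.

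In the sterol branch, Sqle, squalene epoxidase, the first oxygen-requiring step (ENSMUSG00000022351, chromosome 15, 59315077 to 59331192), stood at 32.8 FPKM in control, 23.7 in susceptible, 34.4 in AAV-GFP and 18.5 in AAV-CDYL. It was 1.86-fold lower with CDYL, and the 1.38-fold difference in the stress pair was not counted. Cyp51, the lanosterol demethylase (ENSMUSG00000001467, chromosome 5, 4081145 to 4104746), stood at 26.2 and 13.7 in control and susceptible, and at 23.5 and 13.6 in AAV-GFP and AAV-CDYL. These are 1.91-fold and 1.73-fold lower values, in a locus shared with the pseudogene Wdr46-ps in the stress table and with Akap9 in the AAV table.

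Msmo1, the methylsterol oxidase that removes the C4 methyl groups (ENSMUSG00000031604, chromosome 8, 64718139 to 64733792), had the largest difference of the 7 genes in both comparisons. It stood at 50.6 FPKM in control, 21.5 in susceptible, 44.2 in AAV-GFP and 21.2 in AAV-CDYL. It was 2.35-fold lower in susceptible and 2.09-fold lower in AAV-CDYL, and it shared its locus with no other listed gene. Among genes at FPKM 5 or more in either library, 43 of 3108 lay further below control on the log2(FPKM + 1) scale, and 90 of 5397 further below AAV-GFP.

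Insig1, which retains Scap in the endoplasmic reticulum and is itself an SREBP target (ENSMUSG00000045294, chromosome 5, 28071363 to 28078662), was listed only in the AAV table. Its level was 27.4 FPKM in AAV-GFP and 19.5 in AAV-CDYL, a 1.40-fold difference that was not counted.

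**Figure D1:**
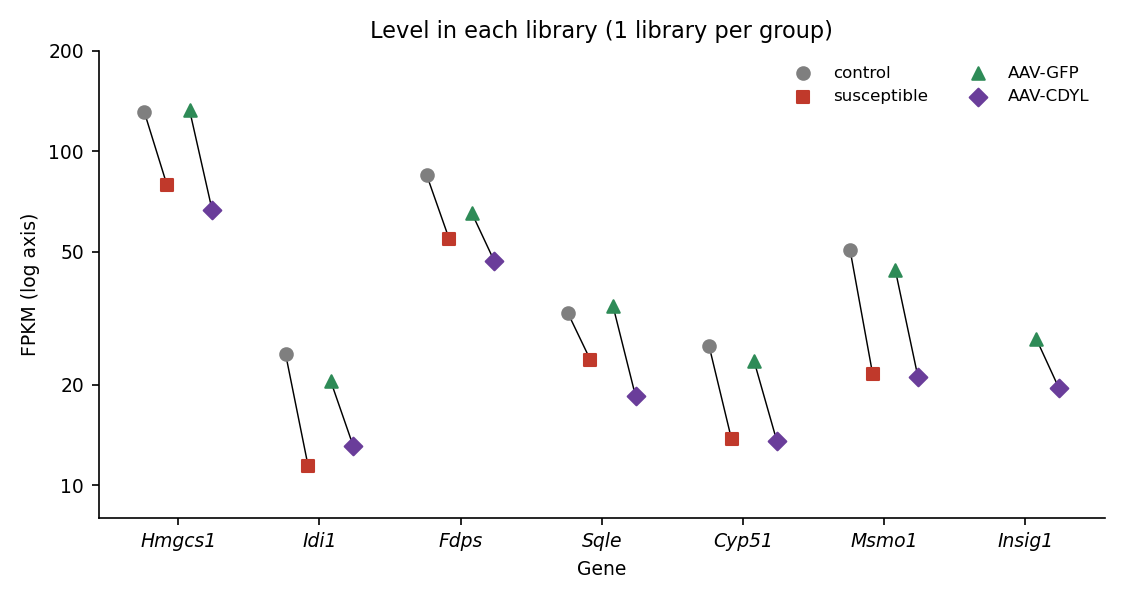
FPKM (log axis) of the 7 genes in the 4 libraries, 1 point per library, with a line joining the libraries of a comparison. Each line runs downward, from 131 to 79.3 FPKM for Hmgcs1 in the stress pair for example; Insig1 has no stress values because that table does not list it.

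By the size rule 5 of the 6 listed genes were lower in susceptible and 0 higher, where 10.8% of the 5334 genes at the floor were lower and 18.9% higher. With CDYL 5 of 7 were lower and 0 higher, where 14.4% of 8047 genes were lower and 31.3% higher. All 7 genes are well expressed, and among genes at FPKM 5 or more in either library the lower shares were 12.8% and 17.8%. The median difference of log2(FPKM + 1) was -0.80 in the stress pair and -0.75 in the AAV pair, beside -0.33 and -0.34 over the genes at FPKM 5 or more. Over all genes at the floor the medians were 0.24 and 0.30. Genes under 1.25-fold apart are left out, so the medians over all genes, unlike those of the members, fall near the edge of that gap. The sign of the all-gene medians changes with the floor, and they do not measure a shift between libraries. Centring on the medians at the floor moved all members further down. It turned the split of all called genes from 1006 higher and 575 lower to 532 and 1918 in the stress pair. In the AAV pair the split went from 2516 and 1159 to 1630 and 3572. A call that centring ended shows dependence on this setting only.

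The pairs share no library. Of the 6 genes listed in both, 4 were lower by the size rule in both, beside 4.32% of the 3242 genes at the floor in both tables. The members were chosen with earlier results of these data known, so this overlap is no separate evidence. They also lie well above the floor, and no such share was taken among genes of like level. Idi1, Msmo1, Cyp51 and Fdps differed more in the stress pair, and Hmgcs1 and Sqle more in the AAV pair, but no difference between the comparisons was tested.

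**Figure D2:**
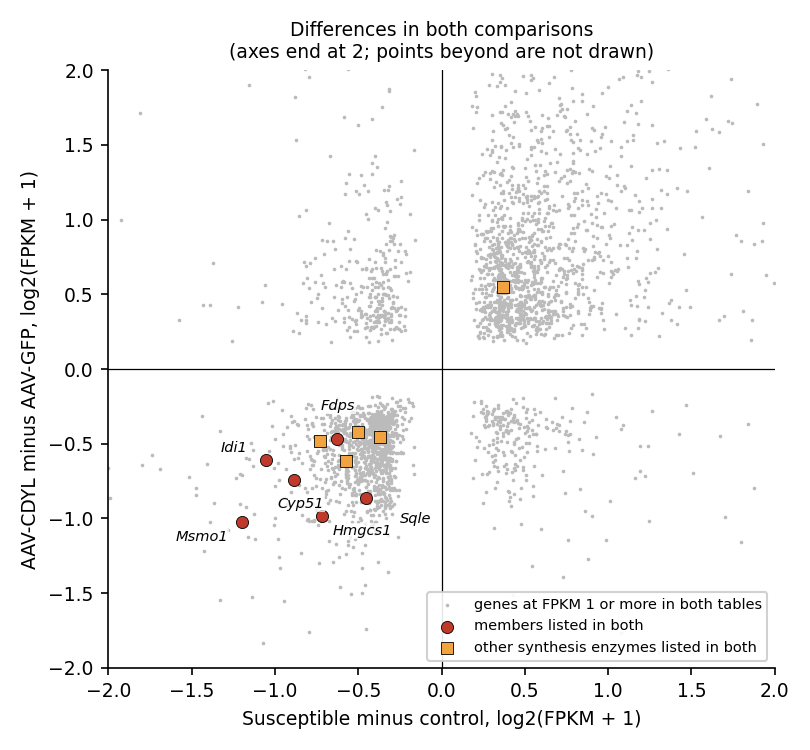
Difference of log2(FPKM + 1) in susceptible minus control (x axis) and AAV-CDYL minus AAV-GFP (y axis), 1 point per gene at FPKM 1 or more in both tables. The 6 members listed in both (circles) lie in the lower left, Msmo1 at -1.20 and -1.03; the gaps along both axes are the small differences that the tables leave out.

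Each value rested on many fragments. Effective depth, estimated from the spacing of low FPKM values, came to 14400000 fragments in control, 23450000 in susceptible, 22300000 in AAV-GFP and 23600000 in AAV-CDYL. With GENCODE M21 transcript lengths, a member's value then rested on roughly 812 to 9940 fragments. For Msmo1 the ratio of susceptible to control was 0.425, with a 95% exact binomial interval of 0.392 to 0.461, and for Idi1 it was 0.462 (0.421 to 0.506). These were the lowest ratios of the stress pair, and the highest was that of Sqle, 0.723 (0.670 to 0.780). In the AAV pair the ratios of AAV-CDYL to AAV-GFP ran from 0.480 for Msmo1 (0.445 to 0.518) to 0.717 for Fdps (0.670 to 0.769). These intervals cover counting error only and say nothing about the spread between animals.

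The authors' deposited table for the stress pair gives Msmo1 p = 1e-04 and q = 0.0384, and Msmo1 is 1 of the 6 genes (0.0487% of 12318) it lists as lower at q under 0.05. The other 5 in the authors' deposited table are the activity genes Arc, Nr4a1 and Nr4a3, the ubiquitin ligase gene Rnf152 and the ribosomal sequence Rn18s-rs5. With 1 library per group, the p-values and q-values of the authors' deposited table hold no measure of the spread between animals. In the authors' deposited table Idi1 has p = 0.0047 with q = 0.536, and Hmgcs1 has p = 0.0194 with q = 0.999. The other 3 listed members have p-values above 0.05 in the authors' deposited table, 0.0808 for Cyp51, 0.129 for Sqle and 0.245 for Fdps. For the AAV pair the authors' deposited table lists 0 genes as lower at that q; Msmo1 has p = 0.0424 with q = 0.957, and the other 6 members have p-values above 0.05.

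Other enzymes of the pathway were taken from a list of 19 enzyme genes, 7 of the mevalonate branch and 12 of the sterol branch, which includes the 6 member enzymes. For stress, 11 were listed and 10 of them lay below control, 6 by the size rule and 0 higher, with a median of -0.63. For CDYL, 16 were listed and 14 lay below AAV-GFP, 8 by the size rule and 0 higher, with a median of -0.54. In each pair 5 of the genes lower by the size rule were members, which were chosen with earlier results of these data known. The counts over the whole list are therefore no separate evidence about the pathway. Of listed genes at FPKM 5 or more, 56.8% and 55.9% lay below the control library of their table. The exceptions were Lbr, a sterol reductase that is also a protein of the inner nuclear membrane, and in the AAV pair Ebp, the sterol isomerase. Lbr stood at 2.59 and 3.64 FPKM in control and susceptible and at 2.24 and 3.74 in AAV-GFP and AAV-CDYL, and Ebp at 7.47 with AAV-GFP and 11.6 with AAV-CDYL. None of these was counted as higher on the log2(FPKM + 1) scale, but in the AAV pair the FPKM ratios were 1.67 for Lbr and 1.56 for Ebp. With a pseudocount of 0.1 or 0.5 in place of 1, or with upper-quartile scaling, 2 genes of the sterol branch were higher in that pair.

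Without the members, 13 enzyme genes of the list remained. In the stress pair 5 were listed, 4 below control, of which only Mvd, the mevalonate diphosphate decarboxylase, passed the size rule (11.9 and 6.77 FPKM, in a locus shared by many listed genes). In the AAV pair 10 were listed, 8 below AAV-GFP and 3 by the size rule. Over all genes at FPKM 5 or more, 12.8% were lower by the size rule for stress and 17.8% for CDYL. With so few enzymes listed, these counts do not set the rest of the pathway apart from other genes. Fdft1, squalene synthase, which commits farnesyl diphosphate to sterols, stood at 38.6 and 23.2, in a locus with Ctsb. Tm7sf2, a sterol reductase of the ring, stood at 12.2 and 7.63 in AAV-GFP and AAV-CDYL, and at 14.7 and 9.56 in control and susceptible, where it was not counted. Upper-quartile scaling ended the Tm7sf2 call in the AAV pair (-0.54). In the stress pair pseudocounts of 0.1 and 0.5 brought it past the size rule (-0.62 and -0.60), as did median centring (-0.82). Hsd17b7, a ketosteroid reductase of the C4 demethylation, stood at 9.44 and 5.42 in the AAV pair. Pmvk, Lss and Dhcr7 were absent from both tables.

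**Figure D3:**
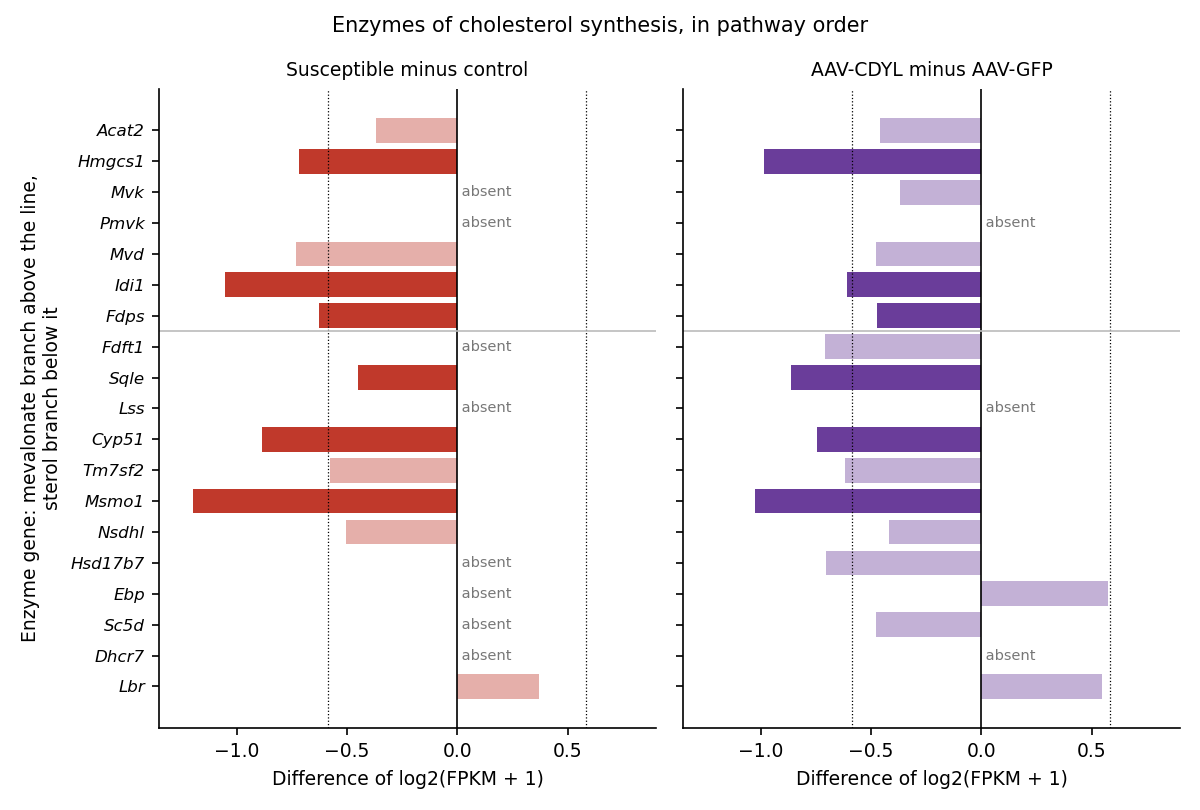
Difference of log2(FPKM + 1) for 19 enzyme genes in pathway order, members in full colour and other enzymes pale; dotted lines mark 1.5-fold, and "absent" marks genes the table does not list. Bars point to lower values for 10 of 11 listed genes in the stress pair and 14 of 16 in the AAV pair.

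Among genes that control the pathway, the 2 SREBP genes stood on opposite sides. Srebf2, whose product mainly drives cholesterol synthesis, stood at 58.8 FPKM in control, 46.3 in susceptible, 67.2 in AAV-GFP and 34.9 in AAV-CDYL, and was counted as lower with CDYL only (1.93-fold). Srebf1, whose product mainly drives fatty acid synthesis, stood at 7.89, 14.4, 10.6 and 22.7 in the same order, higher in both pairs (1.83-fold and 2.14-fold). Centring on the median ended the Srebf1 call in the stress pair (0.55), and its locus is shared with 4930412M03Rik in the stress table and Rai1 in the AAV table. Scap stood at 26.0 in control and 33.6 in susceptible, not counted. Of the 10 control genes, 4 were listed for stress (1 higher, 0 lower, median 0.01) and 3 for CDYL (1 higher, 1 lower, median -0.47).

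Of 12 uptake and transport genes, 4 were listed for stress and 8 for CDYL. Stard4, a cytosolic sterol carrier and an SREBP target, was lower in both pairs, at 13.1 and 7.84 FPKM in control and susceptible and at 12.3 and 5.02 in AAV-GFP and AAV-CDYL. The lysosomal sterol exporters were higher with CDYL: Npc2 stood at 10.2 and 40.3, and Npc1 at 10.3 and 18.4, a call that median centring ended (0.48). Of the listed genes, 3 were at the floor for stress (1 lower, 0 higher, median -0.38) and 7 for CDYL (1 lower, 2 higher, median -0.32).

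Of 17 genes of efflux, storage and breakdown, 9 were at the floor for stress, 3 higher and 0 lower with a median of 0.25, and 9 for CDYL, 6 higher and 1 lower with a median of 0.95. More genes were also higher than lower over all genes at the floor, 18.9% against 10.8% for stress and 31.3% against 14.4% for CDYL, with medians of 0.24 and 0.30. Abca1, the transporter that loads cholesterol onto apolipoproteins, stood at 2.21 FPKM in control, 4.48 in susceptible, 3.58 in AAV-GFP and 13.1 in AAV-CDYL; median centring ended the call for stress (0.53). Ch25h, which makes 25-hydroxycholesterol, a sterol known to hold back SREBP processing, stood at 0.661, 6.33, 0.190 and 1.75 in the same order. Both low starting values are under the floor, so Ch25h could enter a count only by being higher.

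Apoe, the main apolipoprotein of the brain, had a level of 1145 FPKM in AAV-GFP and 4072 in AAV-CDYL and no stress values. Soat1, which esterifies cholesterol for storage, stood at 4.68 and 10.4 in the AAV pair. Cyp27a1, a sterol hydroxylase, stood at 1.06 and 2.97 there, and at 2.06 and 1.41 in control and susceptible. Cyp46a1, the neuronal hydroxylase through which the brain exports cholesterol, was the gene counted as lower, at 98.1 with AAV-GFP and 59.5 with AAV-CDYL.

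Fatty acid genes that SREBPs also control had few listed members for stress. Of 14, 3 were listed for stress (0 higher, 0 lower, median 0.40) and 7 for CDYL (2 higher, 1 lower, median -0.36). Acaca, acetyl-CoA carboxylase, stood at 26.0 and 14.9 FPKM in AAV-GFP and AAV-CDYL. Elovl5, a fatty acid elongase, stood at 15.5 and 29.3 and Gpam, the first acyltransferase of glycerolipid synthesis, at 6.67 and 12.7, both no longer counted after median centring (0.58 and 0.54). Of 10 genes for the making or use of isoprenoids other than sterols, 3 were listed for stress and 4 for CDYL, none past the size rule, with medians of -0.41 and -0.43.

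**Figure D4:**
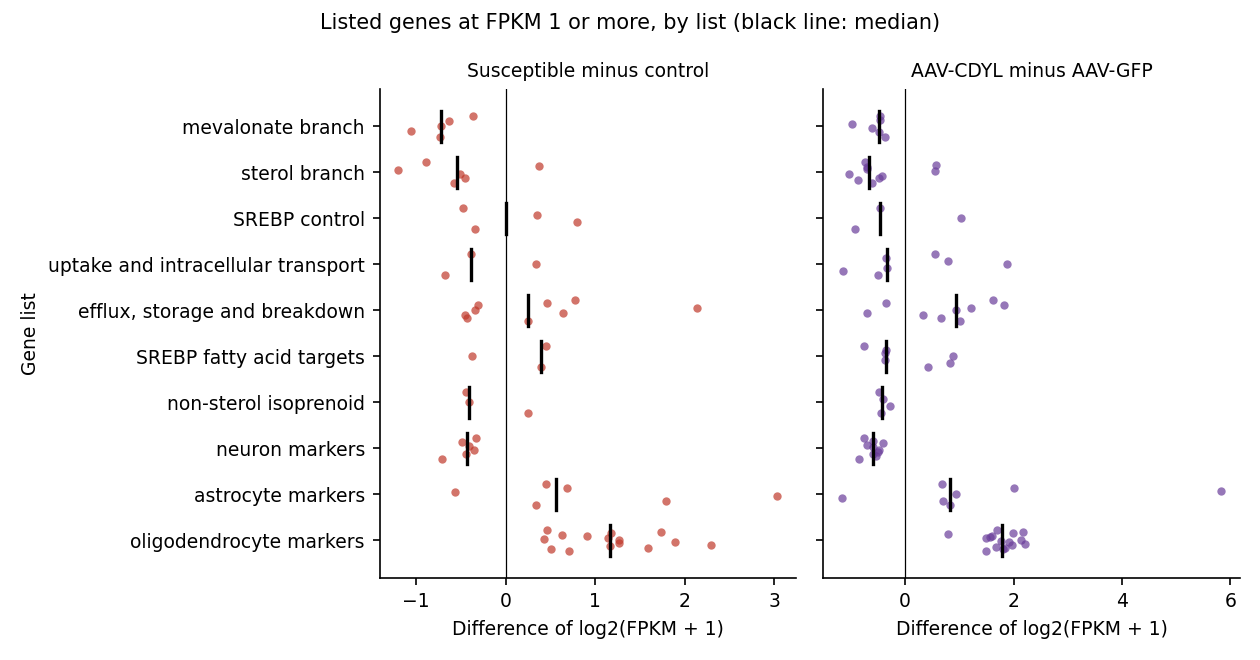
Difference of log2(FPKM + 1) for each listed gene at FPKM 1 or more, by list, with the median as a black line; the left panel is susceptible minus control and the right panel AAV-CDYL minus AAV-GFP, on separate scales. In both panels the medians of both synthesis branches, uptake and transport, non-sterol isoprenoid genes and neuron markers lie below 0. Those of efflux, storage and breakdown and of astrocyte and oligodendrocyte markers lie above 0. Medians of SREBP control and SREBP fatty acid targets lie above 0 on the left and below 0 on the right. The other marker lists are not drawn.

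Markers of cell types also differed between these libraries, and in bulk tissue fewer cells of a type and less RNA per cell cannot be told apart. As a background for every marker list, 18.9% of genes at the floor were higher and 10.8% lower for stress. For CDYL these shares were 31.3% and 14.4%. Among genes at FPKM 5 or more, 12.8% and 17.8% were lower for stress and CDYL, and 56.8% and 55.9% lay below the control library. Neuron markers were listed for 6 of 12 genes in the stress table, all below control (1 by the size rule, median -0.43, summed level 2300.35 FPKM in control and 1683 in susceptible), and for 10 of 12 in the AAV table, all below AAV-GFP (6 by the size rule, median -0.60, summed level 4993 and 3239). Syt1, the synaptic calcium sensor, stood at 617, 453, 591 and 327 FPKM in control, susceptible, AAV-GFP and AAV-CDYL. The members' summed level was 350.2 and 204 FPKM over the 6 genes listed for stress, and 348 and 199 over the 7 listed for CDYL. The part of a change in neuronal RNA in the members' values was not tested.

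Oligodendrocyte markers lay on the opposite side from the members: 15 of 16 were listed for stress, 12 higher and 0 lower (median 1.17, summed level 662 and 1668 FPKM), and 16 for CDYL, all higher (median 1.79, summed level 712 and 2683). Mobp, a structural protein of compact myelin, stood at 60.9 and 303 in the stress pair and 60.6 and 285 in the AAV pair. Astrocyte markers were listed for 6 of 12 genes in the stress table (3 higher, 0 lower, median 0.57, summed level 402 and 666) and for 7 in the AAV table (6 higher, 1 lower, median 0.83, summed level 211 and 708). Gfap, the astrocyte filament gene, stood at 2.92 and 31.0 in the stress pair and at 5.85 and 386 in the AAV pair, where it made up most of the rise in the sum. Gjb6, a connexin gene, was higher for stress (17.4 and 63.0) and lower with CDYL (44.7 and 19.5). Aqp4, the water channel gene, lay below control without being counted (9.87 and 6.36) and was higher with CDYL (10.1 and 43.8). No listed neuron, oligodendrocyte or astrocyte marker was at 0 in any library.

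Microglia markers were listed for 7 of 10 genes in the stress table (1 higher, 2 lower, median -0.39, summed level 178 and 187 FPKM) and for all 10 in the AAV table (9 higher, 0 lower, median 2.46, summed level 216 and 1566). Endothelial markers were listed for 7 of 10 in each table, with 5 higher for stress (median 0.82, summed level 79.7 and 227) and 4 for CDYL (median 0.60, summed level 95.02 and 178). Oligodendrocyte precursor markers had 1 of 6 listed genes higher for stress (median 0.44, summed level 45.7 and 70.04) and 3 of 7 for CDYL (median 0.48, summed level 63.9 and 121). Of 9 leukocyte markers 8 were listed in the AAV table, summing to 0.759 FPKM in AAV-GFP and 37.9 in AAV-CDYL; Cd3g, Cd79a, Cd8a and Nkg7 were listed at 0 with AAV-GFP. For stress, 2 were listed, summing to 0.249 and 0.364, and Ms4a1 was listed at 0 in control. Whether any of these cell types moved the members' values was not tested.

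Genes whose pair of differences was nearest to the median pair of the 6 members listed in both tables (-0.80 for stress and -0.80 for CDYL) were sought among 1669 genes at a mean FPKM of at least 5 in both tables. By Euclidean distance over these 2 differences the 5 nearest non-members were Osbpl3, an oxysterol-binding protein gene (distance 0.017), Nefh, the heavy neurofilament gene (0.021), Gm2694 (0.049), Gm38400 (0.063) and Pak3, a kinase gene (0.085). Osbpl3 stood at 12.6, 6.76, 14.9 and 7.99 FPKM in control, susceptible, AAV-GFP and AAV-CDYL, and Nefh at 14.3, 7.69, 12.7 and 6.88. Of the members, Cyp51 lay closest to the median pair (0.10) and Msmo1 farthest from it (0.45), and with 2 differences per gene such nearness is a description only.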

How the data were processed

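RNA sequencing libraries of mouse prelimbic cortex were compared in 2 pairs, susceptible with control and AAV-CDYL with AAV-GFP, 1 library per group. The authors deposited FPKM values made with Cuffdiff on mm10, per the submitters' processing notes; which aligner and annotation they used, and any version, is not given in the sources used here. The deposited p-values and q-values, and the log2 ratio of the FPKM columns, are the authors'; the ratio was used only to check the columns. Column names were matched to sample titles (the susceptible one lacks a letter), and 0 per-sample columns were left out. About 31.2% and 33.3% of listed genes share a Cuffdiff locus with another listed gene.

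Differences of log2(FPKM + 1) were taken within a table, with a floor of FPKM 1 in either library and a size rule of 1.5-fold; low genes look closer on this scale than they are, and folds of single genes are FPKM ratios. The members, lists, size rule and motifs were chosen with earlier results of these data known. Named genes were all members; in each pathway list the genes called in either comparison, up to the 6 with the largest difference; Srebf1, Srebf2 and Scap; and up to 3 per marker list. Some genes planned for the lists are not reported here and enter no count of a list. Lbr, Ebp, Ctsb, the genes absent from both tables and those in the authors' list of lower genes were named after their values were seen. Depth came from genes with 1 GENCODE M21 transcript of 3 to 20 kb, where at least 91.0% of low values lay within 0.15 of a whole step. Alternatives were pseudocounts of 0.1 and 0.5, no floor, a floor of 5, a 2-fold rule, median centring and upper-quartile scaling. Scripts ran in Python 3.11.15 with pandas 2.3.3 and numpy 2.4.6; intervals came from scipy 1.17.1 and figures from matplotlib 3.10.9.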

Additional observations from a re-analysis of the deposited data

How the results depend on the processing

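Every listed member kept its direction under each alternative, but most alternatives could not have changed it. Median centring moved all members further down, and only upper-quartile scaling moved them up. That move was small, from -0.63 to -0.56 for Fdps in the stress pair and from -0.61 to -0.53 for Idi1 in the AAV pair. Of 100 values of single members under the alternatives, 88 stayed on the same side of the size rule, 9 were no longer past it and 3 came to pass it. Many of the 88 could not have moved. The members lie well above both floors, and leaving out shared loci only drops genes. With the 2-fold rule 2 members were lower in the stress pair and 1 in the AAV pair, and the members' medians, -0.80 and -0.75, did not reach 2-fold. Leaving out genes in a shared locus, chosen after seeing the data, left 3 members lower for stress and 4 for CDYL, because Fdps and Cyp51 drop out. Over all alternatives the number of members counted as lower ran from 2 to 6 and from 1 to 7, and the median difference from -1.05 to -0.73 and from -1.04 to -0.66, in the stress and AAV pairs. Upper-quartile scaling moved the median of all genes at the floor to 0.29 and 0.36. No paired analysis was possible because each group has 1 library, and no library could be left out. Genes under 1.25-fold apart are not listed, so list medians cover listed genes only. For the same reason the medians used for centring do not measure a shift between libraries.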
